A study of Homo sapiens with 12 samples.

Results

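The 10 genes described here encode enzymes of glycolysis that act below hexokinase, and both subunits of lactate dehydrogenase: PFKL, PFKM, PFKP, ALDOA, ALDOC, PGK1, ENO1, ENO2, LDHA and LDHB. They were chosen by name, as the rows of the count tables that carry these symbols, and they are 10 of the 22257 genes listed there. Each gene is represented by 1 transcript, the one the authors had marked. RNA came from LN229, an established human glioblastoma line, in 12 libraries. The cells reached 80% confluence in 6-well dishes and then spent 24 hours in RPMI with 10% dialyzed fetal bovine serum. The medium held 10 mM glucose, 1 mM glucose plus 5 mM acetate (the acetate libraries), or 1 mM glucose with no added acetate, with 4 libraries for each medium. The labels name no genetic change to the cells. Every comparison is within this 1 line, and nothing states that replicates were separate cultures, so p-values measure the spread between these libraries, which may be technical.

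Glycolysis splits glucose into pyruvate and yields ATP, and lactate dehydrogenase turns pyruvate into lactate while it restores the NAD+ that the pathway consumes. Several steps have isoenzymes, separate genes for the same reaction. Phosphofructokinase commits sugar phosphate to the pathway and is assembled from liver (PFKL), muscle (PFKM) and platelet (PFKP) subunits, and it is the step most subject to allosteric control. Aldolase cleaves the resulting bisphosphate, with ALDOA the muscle and ubiquitous form and ALDOC the brain form. Phosphoglycerate kinase (PGK1) makes the first ATP of the payoff phase, and enolase makes phosphoenolpyruvate, with ENO1 widespread and ENO2 known as the neuronal enolase. Lactate dehydrogenase is a tetramer of LDHA and LDHB subunits, and LDHA-rich tetramers are regarded as favouring lactate formation. Tumour cells, glioblastoma included, are known for high rates of lactate production even with oxygen present.

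Total counts ran between 24412954 and 27183718 per library, and all 10 genes passed the filter on low counts that left 14416 genes for testing. Levels are CPM, counts relative to library size after TMM scaling. Of the glioma and astrocyte markers 7 of 8 passed that filter and VIM led them, at 3768, 4473 and 5249 CPM in 10 mM glucose, acetate and 1 mM glucose libraries. The tested members of that list went both ways between 10 mM and 1 mM glucose, 3 higher (SOX2 by 2.40, NES by 1.22 and S100B by 1.10 on the log2 scale) and 3 lower (OLIG2 at -1.56, VIM at -0.48 and CD44 at -0.47). GFAP, a defining astrocyte marker, was at 0.848, 1.14 and 0.98 CPM. Neuron markers summed to 353 to 389 CPM in 10 mM glucose, 366 to 386 CPM with acetate and 422 to 472 CPM in 1 mM glucose, most of it TUBB3. Between 10 mM and 1 mM glucose the neuron markers did not move together, with SYT1 lower (-2.10), SNAP25 higher (0.88) and the other 3 tested not called. Of all tested genes 33.7% were called higher and 33.8% lower between these media. Endothelial markers summed to between 0.529 and 1.55 CPM per library. Immune markers, nearly all CD68, summed to 18.2 to 22.2, 62.2 to 69.0 and 54.6 to 64.9 CPM in 10 mM glucose, acetate and 1 mM glucose libraries. The part of these markers in the results was not tested. The libraries of 1 mM glucose replicate 3 and acetate replicate 1 stood apart. Their deviation from the mean of all libraries had a Spearman correlation of -0.484 and -0.479 with transcript length across genes, against -0.178 to 0.228 in the other 10 libraries.

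**Figure D1:**
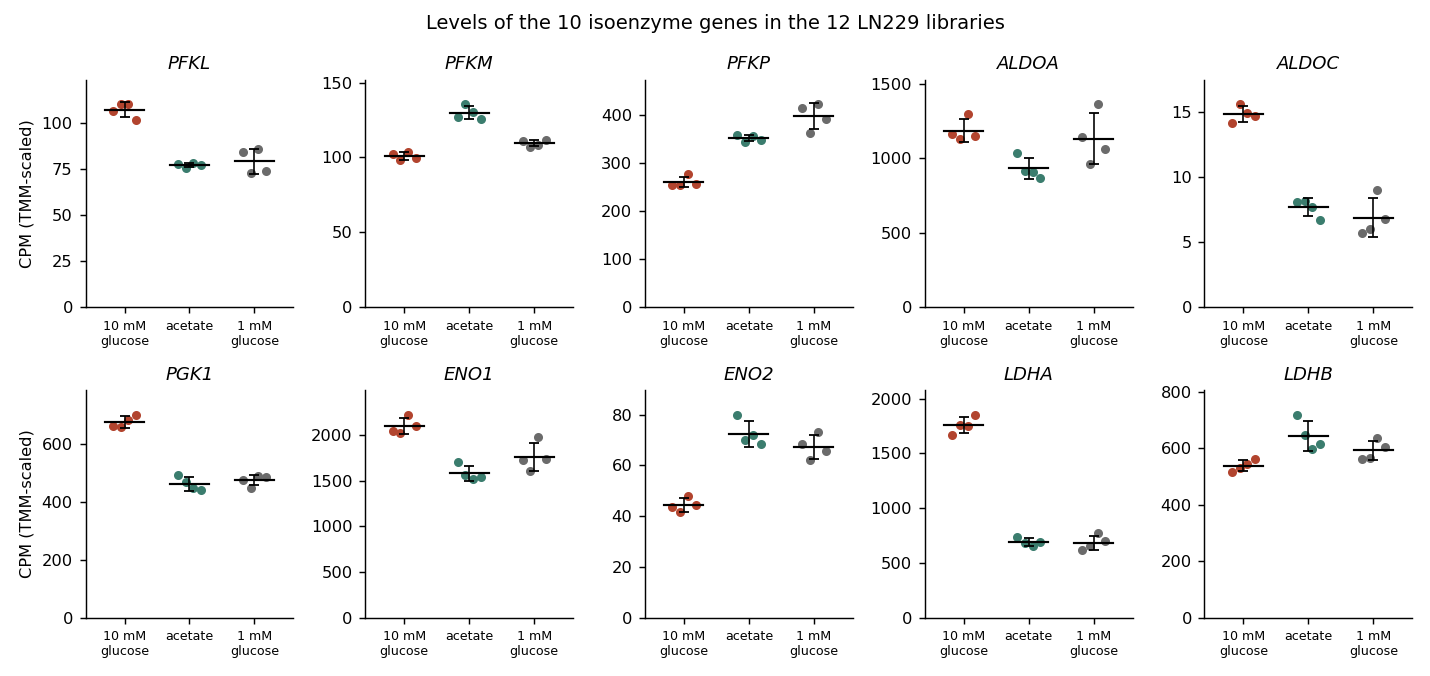
Level of each of the 10 genes in the 12 libraries, in TMM-scaled CPM on linear axes that start at 0. Points are libraries, horizontal bars are means and whiskers are the SD (n = 4), and "acetate" means 1 mM glucose with 5 mM acetate. LDHA lies between 1668 and 1853 CPM in 10 mM glucose and at or below 771 CPM in the other 8 libraries.

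Per transcript length, the 10 genes spanned a wide range of levels. In 10 mM glucose ENO1 came first at 895 ± 38.6 CPM per kb (SD, n = 4), followed by LDHA at 763 ± 32.9 and ALDOA at 749.8 ± 48.0 CPM per kb, and the libraries of LDHA and ALDOA overlapped. LDHB, PGK1, PFKP, PFKL, PFKM, ENO2 and ALDOC followed in that order at 350.4, 138, 98.1, 36.8, 31.3, 18.3 and 7.47 CPM per kb, each with its libraries above those of the next. In 1 mM glucose LDHA, at 297 ± 28.5 CPM per kb, lay below ENO1 (752), ALDOA (716) and LDHB (385), and above the rest. PFKP, at 150.0 ± 10.2 CPM per kb, then stood above PGK1 at 97.2 ± 3.65. These orders depend on the lengths used. In CPM, not divided by length, the 1 mM means of PGK1 (475) and LDHA (685) were above those of PFKP (398) and LDHB (593). The order with acetate was that of 1 mM glucose, with ENO1 and ALDOA overlapping in both media and ENO2 and PFKL overlapping in 1 mM glucose alone. The 10 transcripts together took 0.718 ± 0.0232% of all counts in 10 mM glucose, 0.488 ± 0.0293% with acetate and 0.509 ± 0.0436% in 1 mM glucose (SD, n = 4 each).

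The first comparison asks how these genes differ between 10 mM and 1 mM glucose. In 10 mM glucose 5 of the 10 genes rose, LDHA, ALDOC, PGK1, PFKL and ENO1, and 3 fell, PFKP, ENO2 and PFKM (edgeR quasi-likelihood test, Benjamini-Hochberg adjusted p under 0.05 over all tested genes). Across all genes tested 67.5% were called, 33.7% higher and 33.8% lower, so 8 of 10 is close to the background. The same 8 genes had groups that did not overlap, against 61.5% of all tested genes. The median log2 fold change of the 10 genes was 0.16, beside 0.00 over all tested genes. Members of the same isoenzyme family moved in opposite directions, in phosphofructokinase and in enolase.

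**Figure D2:**
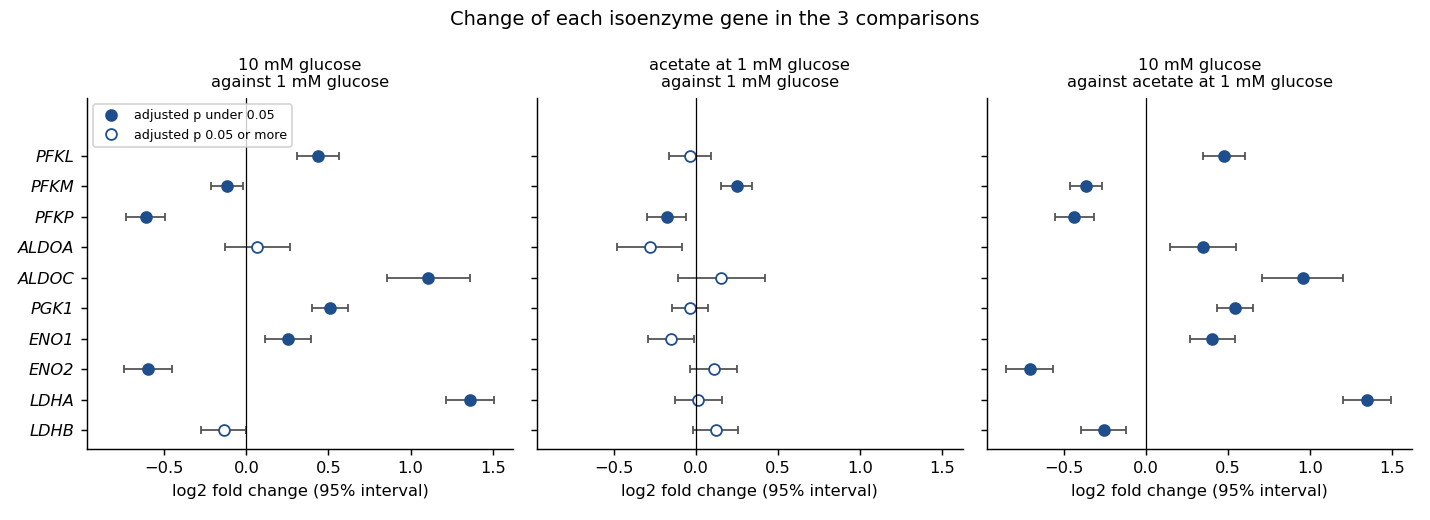
Log2 fold change of each gene in the 3 comparisons, first-named medium over second, with 95% intervals from the edgeR fit. Filled symbols have an adjusted p under 0.05 and open symbols do not. The acetate panel holds 2 filled symbols, PFKM at 0.25 and PFKP at -0.18, and the panel of 10 mM glucose against acetate holds 10.

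LDHA, on chromosome 11, encodes the muscle-type subunit of lactate dehydrogenase. It had 1668, 1762, 1750.4 and 1853 CPM in 10 mM glucose, against 618, 655, 771 and 698 CPM in 1 mM glucose. The lowest 10 mM library was more than 2-fold above the highest 1 mM library. LDHA rose by 1.36 ± 0.07 on the log2 scale (SE), 2.57-fold, with an adjusted p of 2.8e-10 in edgeR. That was the largest rise of the 10 genes, and it ranked 448 among the 14416 tested genes by fold change. LDHB, on chromosome 12, encodes the heart-type subunit and had 518, 530.2, 544 and 563 CPM in 10 mM glucose, against 563, 568, 635 and 605 CPM in 1 mM glucose. The groups overlapped near 563 CPM, and the change of -0.14 ± 0.06 did not pass the test (edgeR adjusted p = 0.0695). LDHB was called lower with the 8 libraries compared alone (adjusted p = 0.0332) and without both libraries that stood apart (0.0427), and its fitted value was 0.042 with a trend over length and GC content removed.

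The promoters of LDHA, LDHB and PGK1 are shown, chosen by their changes: LDHA rose most, PGK1 rose, and LDHB did not pass the test. No gene that fell is among them. Not shown either is ALDOC, whose rise was larger than that of PGK1. The same holds for PFKL and ENO1, which rose, and for ALDOA, which did not pass the test. The 250 bases before the annotated start are from RefSeq (GRCh38.p14), written along the strand of the gene, with capitals at ACGTG or GCGTG on either strand. These letters are the core bound by hypoxia-inducible factors, and CACGTG, which holds ACGTG on both strands, is the E-box bound by MYC and related factors. LDHA has 2 annotated starts, chr11:18394313-18394562 (window 1) and chr11:18396101-18396350 (window 2), both on the plus strand. The marked LDHA transcript starts 85 bases from the start of window 2 in GENCODE v29, and the counts do not tell the starts apart. PGK1 is at chrX:78103998-78104247 on the plus strand and LDHB at chr12:21657843-21658092 on the minus strand. Parts of these windows are annotated as exon in other transcripts of the same genes.
LDHA window 1: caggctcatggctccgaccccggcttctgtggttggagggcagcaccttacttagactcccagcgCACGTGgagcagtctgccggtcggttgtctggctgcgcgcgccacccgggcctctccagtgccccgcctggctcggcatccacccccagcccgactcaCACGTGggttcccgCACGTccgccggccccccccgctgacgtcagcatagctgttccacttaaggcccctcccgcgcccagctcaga
LDHA window 2: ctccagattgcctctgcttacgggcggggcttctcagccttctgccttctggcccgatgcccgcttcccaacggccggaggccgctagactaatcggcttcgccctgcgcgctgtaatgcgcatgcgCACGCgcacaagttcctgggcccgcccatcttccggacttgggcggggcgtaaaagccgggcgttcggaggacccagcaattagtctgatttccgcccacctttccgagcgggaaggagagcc
PGK1: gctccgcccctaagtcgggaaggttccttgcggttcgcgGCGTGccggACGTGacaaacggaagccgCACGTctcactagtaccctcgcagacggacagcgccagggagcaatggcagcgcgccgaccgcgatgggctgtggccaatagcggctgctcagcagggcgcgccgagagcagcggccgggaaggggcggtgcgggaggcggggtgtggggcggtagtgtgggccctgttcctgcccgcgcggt
LDHB: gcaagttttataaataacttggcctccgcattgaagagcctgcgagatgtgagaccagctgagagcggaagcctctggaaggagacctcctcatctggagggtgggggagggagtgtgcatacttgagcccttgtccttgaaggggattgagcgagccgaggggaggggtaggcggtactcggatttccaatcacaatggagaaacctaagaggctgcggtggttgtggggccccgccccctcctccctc

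Window 1 of LDHA holds 5 matches to ACGTG, of which 4 are 2 CACGTG motifs read on both strands, and a TGACGTCA, the cyclic AMP response element, in lower case. At least 5 matches to ACGTG occur in 0.177% of the 35116 RefSeq windows of this length, at least 2 CACGTG in 0.535%, and TGACGTCA in 1.65%. The cut-offs of 5 and 2 are the counts of window 1 itself, so these shares describe that window and are not a test. PGK1 holds 2 matches to ACGTG and 1 to GCGTG. LDHB holds none of either, and window 2 of LDHA holds 1 GCGTG. Of all windows 18.5% hold ACGTG and 32.2% hold the other core, as do 9 and 6 of the 22 windows of the 10 genes, some of which overlap. By gene, 7 of the 10 have a window with ACGTG, so genes that did not rise are among those that hold it. A match describes letters in these windows and is not a measured binding site.

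The phosphofructokinase transcripts changed in their proportions. PFKP had 253, 255, 276 and 257 CPM in 10 mM glucose, against 415, 363, 423 and 392 CPM in 1 mM glucose. All 4 libraries in 10 mM glucose were below all 4 in 1 mM glucose, and PFKP fell by 0.61 ± 0.06 on the log2 scale (edgeR adjusted p = 1.8e-07), the largest fall of the 10 genes. PFKL had 106, 110.2, 110.2 and 102 CPM in 10 mM glucose, against 84.4, 72.6, 85.6 and 73.7 CPM in 1 mM glucose. It rose by 0.44 ± 0.06 (edgeR adjusted p = 1.4e-05) with no overlap, although the 1 mM libraries fell into a higher and a lower pair. PFKM had 102, 97.9, 104 and 99.6 CPM in 10 mM glucose, against 111, 107, 108 and 111 CPM in 1 mM glucose. Its fall of 0.12 ± 0.05 was small and passed narrowly (edgeR adjusted p = 0.0342). With library totals in place of TMM its fitted value was 0.025, and the call was also lost with no filter (adjusted p = 0.0620), with the replicate block (0.0543) and without 1 mM replicate 1 or 4, or 10 mM replicate 1, 2 or 4 (adjusted p from 0.0525 to 0.0986).

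Of the aldolases only ALDOC, the minor form, passed the test. ALDOC had 14.1, 15.6, 14.9 and 14.7 CPM in 10 mM glucose, against 5.70, 5.95, 9.01 and 6.77 CPM in 1 mM glucose. Every 10 mM library was above every 1 mM library, of which replicate 3 was the highest, and ALDOC rose by 1.11 ± 0.12 on the log2 scale, 2.16-fold (edgeR adjusted p = 9.7e-07). ALDOA was the major aldolase transcript of these cells. It had 1159, 1131, 1296 and 1149 CPM in 10 mM glucose, against 1143, 961, 1363 and 1058 CPM in 1 mM glucose. Its 1 mM libraries spanned the whole range of the 10 mM ones, and the change of 0.07 did not pass the test (95% interval -0.13 to 0.26, edgeR adjusted p = 0.544). Within 1 mM glucose, ALDOA was highest in replicate 3, which stood apart on transcript length. With a trend over length and GC content removed from all libraries, ALDOA was called higher, by 0.18 (edgeR adjusted p = 0.00029), and without both libraries that stood apart by 0.17 (0.0103), while without 1 mM replicate 2 its fitted value was -0.0067.

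PGK1, the phosphoglycerate kinase of somatic cells, had 661, 657, 682 and 701 CPM in 10 mM glucose, against 476, 449.5, 489.6 and 485 CPM in 1 mM glucose. The libraries of each medium lay close together and far from those of the other, and PGK1 rose by 0.51 ± 0.05 on the log2 scale (edgeR adjusted p = 6.3e-07). The enolases parted. ENO1 had 2042, 2024, 2224 and 2106 CPM in 10 mM glucose, against 1732, 1606, 1977 and 1736 CPM in 1 mM glucose. The lowest 10 mM library exceeded the highest 1 mM library by a small margin, and ENO1 rose by 0.25 ± 0.06 (edgeR adjusted p = 0.0032). ENO2 had 43.7, 41.7, 48.1 and 44.3 CPM in 10 mM glucose, against 68.5, 62.1, 73.0 and 65.7 CPM in 1 mM glucose. It fell in 10 mM glucose with a wide gap between the groups, by 0.60 ± 0.07 (edgeR adjusted p = 1.9e-06).

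All these values are CPM, relative to the whole library, so a change in total RNA per cell does not show in them. They are levels of transcripts, and protein, the subunit make-up of the enzymes and the flow through glycolysis were not measured. Each library pools many cells, so a lower level per cell and fewer cells with the transcript cannot be told apart. Scaling by library totals moves the median log2 fold change of all genes in this comparison to 0.14, and the share of calls that are higher to 63.3%, against 49.9% with TMM. Relative to that median, PFKM and LDHB were at -0.12 and -0.14, while their unadjusted values turned to 0.025 and 0.0042. The other 8 genes kept their sign under library totals and DESeq2 size factors. Processed pseudogenes are named in GENCODE v29 for LDHA (6), ENO1 (4), LDHB (3), ALDOA (2) and PGK1 (1), and none is a row of the tables, so reads shared with them are an uncertainty of these 5 genes. Of the genes compared here 9 overlap another annotated gene, 6 of them 1 on the opposite strand, and without a stated strand setting such reads cannot be told apart.

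The second comparison asks what 5 mM acetate added to 1 mM glucose does to the same genes. PFKM rose and PFKP fell, and the other 8 did not pass the test, while 13.7% of all tested genes did, 6.65% higher and 7.09% lower. Of those calls 48.4% were higher, against 65.2% with library totals, which move the median of all genes by 0.04. PFKM had 127, 136, 130.3 and 126 CPM with acetate, against 111, 107, 108 and 111 CPM in 1 mM glucose. All acetate libraries were higher, and the rise was 0.25 ± 0.05 on the log2 scale (edgeR adjusted p = 0.0026), with an adjusted p between 7.2e-07 and 0.0178 under the 20 alternatives. PFKP had 359, 344, 356 and 348 CPM with acetate, against 415, 363, 423 and 392 CPM in 1 mM glucose. The groups came close at acetate replicate 1 and 1 mM replicate 2 without overlapping, and PFKP fell by 0.18 ± 0.06 (edgeR adjusted p = 0.0460). That call was lost with library totals, with no filter, with the 8 libraries compared alone, and when any of 6 single libraries was left out (1 mM replicates 1, 3, 4; acetate replicates 2, 3, 4; adjusted p from 0.0721 to 0.130). These 2 genes were also the only ones whose groups did not overlap, beside 15.6% of all tested genes.

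LDHA with acetate had 734, 683, 653 and 695 CPM, against 618, 655, 771 and 698 CPM in 1 mM glucose, and the acetate libraries lay inside the range of the 1 mM libraries. The fitted change of 0.01 had a 95% interval of -0.13 to 0.16 on the log2 scale (edgeR adjusted p = 0.926). PGK1 at -0.04 (0.0022 with library totals), PFKL at -0.04, ENO2 at 0.11, LDHB at 0.12, ENO1 at -0.15 and ALDOC at 0.15 did not pass either. With the length and GC trend removed LDHB was called higher (0.14, edgeR adjusted p = 0.0040), ENO2 higher (0.13, 0.0391) and ENO1 lower (-0.13, 0.0122). With acetate PGK1 had 493, 470.4, 449 and 439.6 CPM and PFKL 77.5, 75.5, 78.2 and 76.9 CPM. Both overlapped their 1 mM libraries, and the acetate libraries of PFKL lay closer together than those in 1 mM glucose. ENO1 had 1704, 1564, 1525 and 1546 CPM with acetate, with replicate 1 the highest. ALDOC with acetate had 8.06, 8.17, 7.68 and 6.65 CPM, and was called higher when 1 mM replicate 3 was left out (0.31, edgeR adjusted p = 0.0343). ALDOA had 1033, 915, 907 and 866 CPM with acetate, against 1143, 961, 1363 and 1058 CPM in 1 mM glucose. Its highest acetate library was replicate 1 and its highest 1 mM library replicate 3, the pair that stood apart, and the groups overlapped. The fitted change of ALDOA was -0.28 ± 0.09 (edgeR adjusted p = 0.0583), and it was called lower with the length and GC trend removed (adjusted p = 0.00029), without both libraries (0.0063), without 1 mM replicate 2 (0.0147) or acetate replicate 1 (0.0215), with the replicate block (0.0469) and with DESeq2 (adjusted p = 0.0271). ENO1 was called lower without acetate replicate 1 (-0.19, edgeR adjusted p = 0.0491). Without 1 mM replicate 3 and acetate replicate 1 together, 5 of the 10 genes were called, PFKM and ALDOC higher and PFKP, ALDOA and ENO1 lower, while 3728 genes in all were called in place of 1980.

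The third comparison, 10 mM glucose against acetate, tests directly whether the first 2 changes differ, since both share the 1 mM libraries. All 10 genes were called and none of their groups overlapped, beside 62.8% of all tested genes called (31.0% higher, 31.8% lower) and 61.0% without overlap. In 10 mM glucose 6 genes were higher than with acetate: LDHA by 1.35 ± 0.07 on the log2 scale, ALDOC by 0.95 ± 0.12, PGK1 by 0.54 ± 0.05, PFKL by 0.48 ± 0.06, ENO1 by 0.41 ± 0.07 and ALDOA by 0.35 ± 0.09. The other 4 were lower, ENO2 at -0.71 ± 0.07, PFKP at -0.43 ± 0.06, PFKM at -0.36 ± 0.05 and LDHB at -0.26 ± 0.06, and the highest edgeR adjusted p of the 10 was 0.0045, for ALDOA. For LDHB the call was lost with library totals (adjusted p = 0.0538), a scaling that moves the median of all genes by 0.10 and the share of higher calls to 60.8%, against 49.4%. ENO2 had 43.7, 41.7, 48.1 and 44.3 CPM in 10 mM glucose, against 80.0, 70.0, 71.9 and 68.4 CPM with acetate. LDHB had 518, 530.2, 544 and 563 CPM in 10 mM glucose, against 719, 646, 598 and 614 CPM with acetate. Every library in 10 mM glucose was below every acetate library for both genes.

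**Figure D3:**
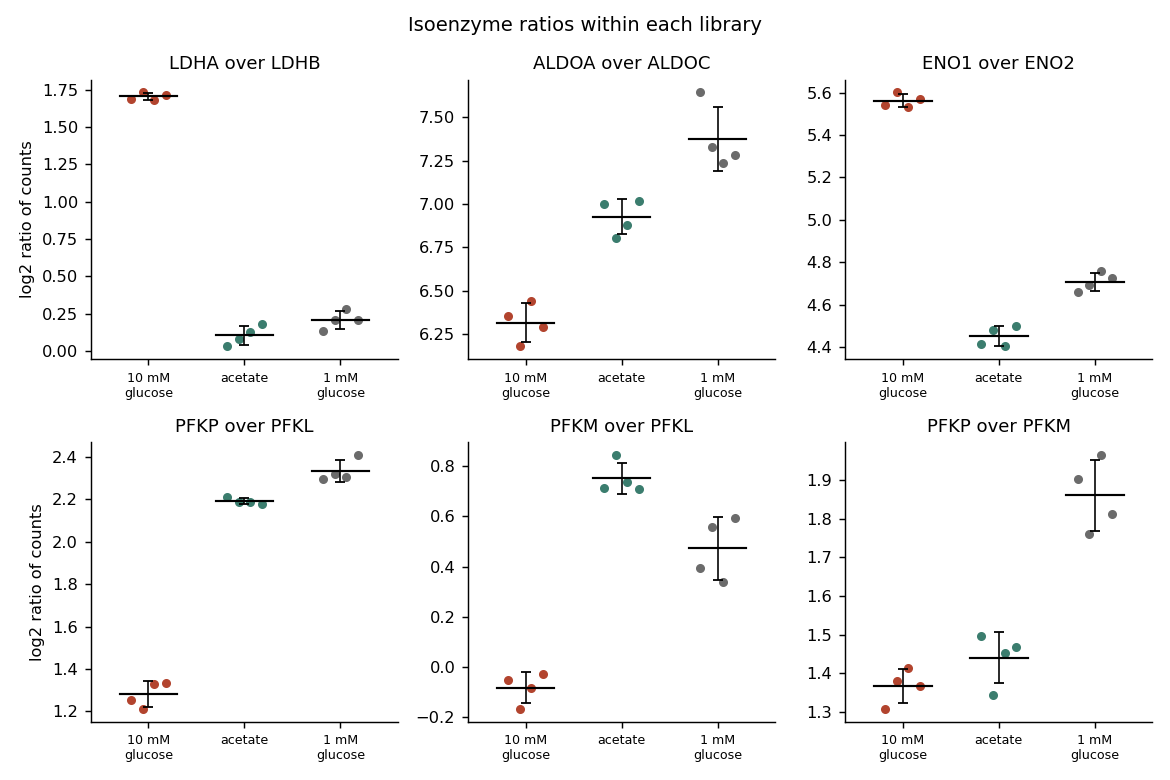
Log2 ratio of the counts of isoenzyme pairs within each library. Points are libraries, bars are means and whiskers are the SD (n = 4), and the vertical axes do not start at 0. LDHA over LDHB lies between 1.68 and 1.73 in 10 mM glucose and between 0.03 and 0.28 in the other 8 libraries.

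Ratios of isoenzymes within a library do not depend on the scaling. They were taken from the counts, so a trend over length and GC content remains in them. LDHA over LDHB had log2 ratios of 1.69, 1.73, 1.68 and 1.72 in 10 mM glucose, 0.03, 0.08, 0.13 and 0.18 with acetate, and 0.13, 0.21, 0.28 and 0.21 in 1 mM glucose. The 10 mM libraries lay far above all others, while acetate and 1 mM libraries overlapped. The difference between 10 mM and 1 mM glucose was 1.50, a 2.83-fold change in the ratio (exact two-sided permutation test, p = 0.0286, the smallest that 4 against 4 libraries can give, adjusted p = 0.0321 over 18 tests of 6 ratios in 3 comparisons). Acetate against 1 mM glucose differed by -0.10 (exact permutation p = 0.0571, adjusted p = 0.0605).

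ENO1 over ENO2 had log2 ratios of 5.54, 5.60, 5.53 and 5.57 in 10 mM glucose, 4.41, 4.48, 4.41 and 4.50 with acetate, and 4.66, 4.69, 4.76 and 4.72 in 1 mM glucose. The 3 media gave 3 separate levels, with acetate the lowest. The ratio was 0.85 higher in 10 mM than in 1 mM glucose, and 0.26 lower with acetate than in 1 mM glucose. ALDOA over ALDOC was lower than in 1 mM glucose in both media, by 1.06 in 10 mM glucose and by 0.45 with acetate, and its SD of 0.18 in 1 mM glucose was the widest of the 6 ratios. Each of these differences had an exact permutation p of 0.0286 and an adjusted p of 0.0321.

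Among the phosphofructokinase pairs, PFKP over PFKL had log2 ratios of 1.25, 1.21, 1.33 and 1.34 in 10 mM glucose, 2.21, 2.19, 2.19 and 2.18 with acetate, and 2.30, 2.32, 2.30 and 2.41 in 1 mM glucose. It was 1.05 lower in 10 mM than in 1 mM glucose and 0.14 lower with acetate than in 1 mM glucose. PFKM over PFKL went opposite ways in the 2 media, 0.56 lower in 10 mM glucose and 0.28 higher with acetate, each against 1 mM glucose. PFKP over PFKM was lower in both, by 0.49 in 10 mM glucose and by 0.42 with acetate. All of these had an exact permutation p of 0.0286 (adjusted p = 0.0321). Between 10 mM glucose and acetate, PFKP over PFKM differed by -0.07 (exact permutation p = 0.114, adjusted p = 0.114), with overlapping libraries, and the other 5 ratios were called. In all, 16 of the 18 ratio tests were called. No share over other pairs of genes was computed to set beside this count. Of single genes tested, 61.5% had no overlap between 10 mM and 1 mM glucose, and 61.0% none between 10 mM glucose and acetate. Between acetate and 1 mM glucose the share was 15.6%. The phosphofructokinase ratios are also not independent, since each follows from the others.

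**Figure D4:**
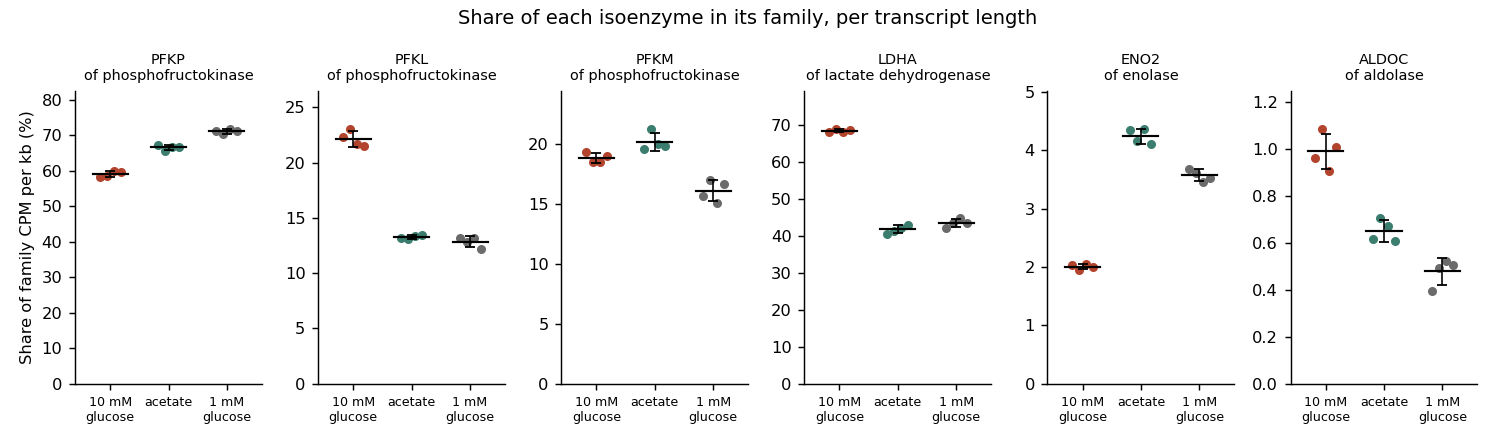
Share of each isoenzyme in the summed CPM per kb of its family, in percent, on linear axes that start at 0. Points are libraries, bars are means and whiskers are the SD (n = 4). PFKP is highest in 1 mM glucose and lowest in 10 mM glucose, and the LDHA share in 10 mM glucose stands apart from both other media.

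Expressed as shares of a family per transcript length, LDHA made up 68.5 ± 0.350% of the lactate dehydrogenase transcripts in 10 mM glucose, 41.8 ± 1.07% with acetate and 43.5 ± 1.02% in 1 mM glucose (SD, n = 4 each). Per length, LDHA was thus the major subunit transcript in 10 mM glucose, and LDHB in the other 2 media. That change of order depends on the lengths used, 2305 bases for LDHA and 1538 for LDHB. In counts alone LDHA was above LDHB in all 12 libraries, by a log2 ratio of at least 0.03. The summed level of both was 1113 ± 45.0 CPM per kb in 10 mM glucose, 719 ± 48.5 with acetate and 683 ± 50.2 in 1 mM glucose. Among phosphofructokinase transcripts the platelet form remained the most abundant. PFKP held 59.0 ± 0.732% in 10 mM glucose, 66.5 ± 0.657% with acetate and 71.0 ± 0.63% in 1 mM glucose. PFKL held 22.1 ± 0.684%, 13.3 ± 0.138% and 12.9 ± 0.471% in the same order of media, and PFKM 18.8 ± 0.442%, 20.2 ± 0.74% and 16.1 ± 0.887%. The summed phosphofructokinase level went the other way from lactate dehydrogenase, at 166 ± 5.40 CPM per kb in 10 mM glucose, 199 ± 2.50 with acetate and 211 ± 12.7 in 1 mM glucose. ENO2 held 2.01 ± 0.0424% of enolase in 10 mM glucose, 4.24 ± 0.132% with acetate and 3.57 ± 0.102% in 1 mM glucose. ALDOC held 0.99 ± 0.0756%, 0.65 ± 0.0458% and 0.48 ± 0.0574% of aldolase in the same order. The marked PFKL transcript is a non-coding RefSeq entry whose length was taken from another transcript of the gene, so PFKL shares depend on that length.

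Of the 10 genes 5 have more than 1 deposited transcript, 6 for LDHA, 4 each for ALDOA and PFKM, and 2 each for LDHB and PFKL. Their totals lay within 87.0% to 100% of the highest transcript of the gene, so they share most of their counts. Log2 changes between 10 mM and 1 mM glucose differed by at most 0.0097 between transcripts of 1 gene, and those for acetate by at most 0.0053. The data therefore do not resolve splice forms or alternative starts of these genes.

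The other glycolysis genes between glucose 6-phosphate and lactate were read from a list of 17, of which 16 are in the tables and 12 were tested. In 10 mM glucose 8 rose, beside 33.7% of all tested genes, and the median log2 fold change was 0.37, beside 0.00 for all tested genes. Over the 20 alternatives 6 to 9 rose, with 6 without 1 mM replicate 2. None fell by edgeR at the adjusted threshold, at an unadjusted p under 0.05, or under those alternatives, DESeq2 and limma-voom among them. PGAM1, the phosphoglycerate mutase that follows PGK1, averaged 80.8 ± 3.58 CPM in 10 mM glucose and 44.5 ± 4.43 CPM in 1 mM glucose (0.86 ± 0.08, edgeR adjusted p = 1.4e-07). Its muscle paralog PGAM2 averaged 9.90 ± 0.844 CPM in 10 mM glucose and 2.61 ± 0.511 CPM in 1 mM glucose (1.92 ± 0.17, edgeR adjusted p = 1.6e-07). TPI1, which interconverts the triose phosphates, rose by 0.55 ± 0.09, and PKM2, the symbol the tables use for the pyruvate kinase gene PKM, rose by 0.32 ± 0.05. GAPDH falls outside the rule for naming genes and was picked after its values were seen: its change was -0.04 ± 0.10 and did not pass the test (edgeR adjusted p = 0.741). With acetate ENO3, the muscle enolase, rose by 0.47 ± 0.10 (edgeR adjusted p = 0.0049) and PKM2 fell by 0.22 ± 0.05 (edgeR adjusted p = 0.0127), and the other 10 did not pass. Of all tested genes 13.7% were called with acetate. The PKM2 call was lost with the 8 libraries compared alone (adjusted p = 0.0595).

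**Figure D5:**
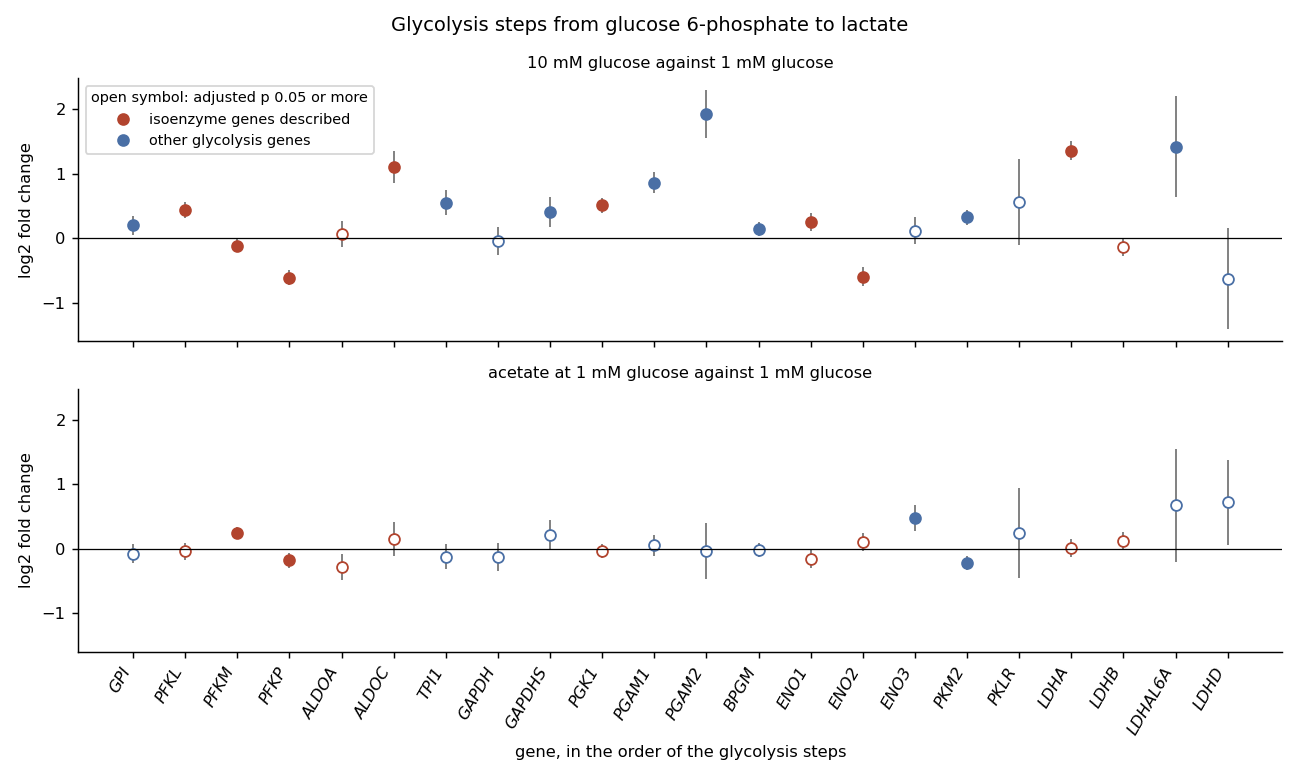
Log2 fold change with 95% intervals of the 10 genes (red) and of the 12 other tested glycolysis genes (blue), in the order of the pathway from left to right. Open symbols have an adjusted p of 0.05 or more, and LDHAL6A, LDHD and PKLR, which are low, have the widest intervals. With 10 mM glucose the filled symbols below 0 are PFKM, PFKP and ENO2.

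Of 7 tested genes for entry of glucose and its phosphorylation 3 rose and 3 fell in 10 mM glucose. Of all tested genes 33.7% rose and 33.8% fell. SLC2A3, the neuronal-type glucose transporter, averaged 18.3 ± 1.25 CPM in 10 mM glucose and 57.0 ± 6.63 CPM in 1 mM glucose. SLC2A1 (199 ± 7.51 and 378 ± 25.5 CPM in the same order) and HK2, an inducible hexokinase (127 ± 1.43 and 284 ± 34.9 CPM), also fell. PFKFB4, which sets the fructose 2,6-bisphosphate that activates phosphofructokinase, rose by 0.99 ± 0.06 (edgeR adjusted p = 1.7e-09). With acetate 1 of the 7 rose, PFKFB4 by 0.36 ± 0.06, and 4 fell, among them SLC2A3 by 0.65 ± 0.08, SLC2A1 by 0.36 ± 0.06 and HK2 by 0.32 ± 0.08. Across all tested genes 6.65% rose and 7.09% fell with acetate. The HK2 call was lost without 1 mM replicate 1 (edgeR adjusted p = 0.0594) and with the 8 libraries compared alone (0.0756).

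Of the genes for the reverse, gluconeogenic steps 3 of 6 were tested. All fell in 10 mM glucose, beside 33.8% of all tested genes. PCK2, the mitochondrial phosphoenolpyruvate carboxykinase, averaged 25.7 ± 1.02 CPM in 10 mM glucose and 109 ± 7.86 CPM in 1 mM glucose (-2.09 ± 0.06, edgeR adjusted p = 1.1e-12). PC, pyruvate carboxylase, fell by 0.57 ± 0.06, and G6PC3 by 0.34 ± 0.09, a call lost with library totals (adjusted p = 0.0708). With acetate none of the 3 was called by edgeR, beside 13.7% of all tested genes, and 0 of the 3 had an unadjusted p under 0.05. None was called under the 20 alternatives either, DESeq2 and limma-voom among them. Among 6 carriers of lactate and pyruvate 1 rose and 3 fell in 10 mM glucose, beside 33.7% and 33.8% of all tested genes. SLC16A3, the exporter of lactate from glycolytic cells, averaged 26.2 ± 2.03 CPM in 10 mM glucose and 13.4 ± 2.18 CPM in 1 mM glucose (0.97 ± 0.11, edgeR adjusted p = 1.2e-06). SLC16A1, the more general monocarboxylate transporter, fell by 0.37 ± 0.06, BRP44L (now named MPC1, a subunit of the mitochondrial pyruvate carrier) by 0.49 ± 0.08, and BSG, the chaperone of these transporters, by 0.27 ± 0.08. The BSG call was lost with library totals (adjusted p = 0.159). With acetate only BRP44L of the 6 was called, lower by 0.37 ± 0.08 (edgeR adjusted p = 0.0097), beside the same 13.7%.

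Of 11 transcription factors known to bind promoters of glycolysis genes 10 were tested. In 10 mM glucose 3 rose and 6 fell, beside 33.7% and 33.8% of all tested genes. KLF4 averaged 9.66 ± 0.205 CPM in 10 mM glucose and 46.2 ± 2.94 CPM in 1 mM glucose, and MAX, the partner of MYC proteins, 47.4 ± 0.673 and 79.8 ± 3.88 CPM in the same order. MYC changed by -2.66 ± 0.06 and its paralog MYCN by 2.76 ± 0.13. The hypoxia-inducible factor genes fall outside the rule for naming genes and are given because their core is marked above. HIF1A averaged 592 ± 19.9 CPM in 10 mM glucose and 955 ± 89.2 CPM in 1 mM glucose (-0.69 ± 0.07). EPAS1 averaged 6.08 ± 0.988 and 20.7 ± 3.76 CPM in the same order (-1.77 ± 0.13). Both were called lower, and ARNT was not called (0.09 ± 0.08). With acetate none rose (0 to 2 over the 20 alternatives, and 1, MYCN, at an unadjusted p under 0.05) and 3 fell, MYC by 0.41 ± 0.06, KLF4 by 0.40 ± 0.06 and EPAS1 by 0.57 ± 0.12. Across all tested genes 6.65% rose and 7.09% fell with acetate. Hypoxia-linked genes outside glycolysis had 8 of 16 higher and 6 lower in 10 mM glucose, beside the same 33.7% and 33.8%. They were led by VEGFA (-2.63 ± 0.06), ADM (-1.56 ± 0.10), CA9 (2.95 ± 0.18) and INSIG2 (-0.63 ± 0.05). With acetate 1 of the 16 was called, beside 13.7% of all tested genes. It was NDRG1, lower by 0.49 ± 0.07 (edgeR adjusted p = 0.00047). Over the 20 alternatives between 1 and 7 were lower and at most 1 higher. These transcripts do not measure the activity of the factors.

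The genes whose pattern was most like that of LDHA over the 12 libraries, by the root mean square difference of centred log2 CPM among 11180 genes, were CCNA2 at 0.0548, BIRC5 at 0.0592 and HMGB3 at 0.0705. CCNA2, cyclin A2, averaged 199 ± 7.66 CPM in 10 mM glucose, 81.0 ± 3.18 CPM with acetate and 80.6 ± 5.78 CPM in 1 mM glucose. The genes most like PFKP were WDR1 at 0.0333, MOK at 0.0357 and ASCC2 at 0.0377. WDR1, which promotes actin filament disassembly, averaged 354 ± 11.6 CPM in 10 mM glucose, 490.1 ± 4.40 CPM with acetate and 538 ± 32.7 CPM in 1 mM glucose. These likenesses describe the same 12 libraries, and genes of one library share its depth and its trend over length.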

How the data were processed

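RNA-seq counts were taken from the 12 LN229 libraries, 4 per medium as grouped by their titles. The authors deposited raw read counts per transcript for 34917 transcripts of 22257 genes, with a mark on the best transcript of each gene. The genome build is hg19, per the submitters' processing notes, while no source used here names the aligner, the counting tool with its strand setting, or the annotation. Each gene was represented by its marked transcript (20895 genes) or, without a mark, by the transcript with the highest total (1362 genes). No libraries were identical.

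The filter was edgeR's filterByExpr, the scaling TMM, and the test edgeR's quasi-likelihood test in 1 fit of all 12 libraries without a block, with Benjamini-Hochberg adjustment over 14416 genes and a threshold of 0.05. The common biological coefficient of variation was 8.51%. Log2 ratios of isoenzymes used counts plus 0.5 and exact two-sided permutation tests over libraries. Lengths came from GENCODE v29 and promoter windows of 250 bases from RefSeq (GRCh38.p14), a later build than that of the files, so no coordinate was carried between them. The text names the 10 genes, up to 4 genes per other list by adjusted p, and the 3 genes with the nearest pattern. GAPDH, HIF1A, EPAS1 and ARNT are named outside that rule for 10 mM against 1 mM glucose. The members and lists were chosen with earlier results of these data known. 1 further list of cell type markers is not reported here. The fit was tested on simulated data. Alternatives were DESeq2 size factors, library totals, DESeq2, limma-voom, no filter, a mean of at least 5 CPM, the compared libraries alone, a replicate block, removal of a length and GC trend, highest-total transcripts, and leaving out libraries. Tools were R 4.3.3, edgeR 4.0.16, limma 3.58.1, DESeq2 1.42.0, Python 3.11.15, numpy 2.4.6, pandas 2.3.3, scipy 1.17.1 and matplotlib 3.10.9.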

Additional observations from a re-analysis of the deposited data

Results flagged for a closer look

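In 10 mM glucose replicate 3, PFKP was at 276 CPM, while the other 3 libraries of that medium lay between 253 and 257 CPM, which left a gap wide for a group of 4. In the same library ALDOA was at 1296 CPM, against 1131 to 1159 CPM in the other 3. Of 48 groups of 4 libraries examined 2 were flagged in this way, and chance flags about 1 in 20 groups.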

How the results depend on the processing

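Of 200 alternative values for the 10 genes in each comparison, 183 kept direction and side of the threshold for 10 mM against 1 mM glucose, 167 for acetate against 1 mM glucose and 199 for 10 mM glucose against acetate. The values that changed sign belonged to main values between -0.14 and 0.07. For 10 mM against 1 mM glucose they were PFKM at 0.025 and LDHB at 0.0042 with library totals, LDHB at 0.042 with the length and GC trend removed (0.042 also with the replicate block), and ALDOA at -0.0067 without 1 mM replicate 2 (range over libraries left out -0.0067 to 0.167). For acetate they were PGK1 at 0.0022 with library totals, LDHA at -0.0064 with the trend removed and -0.0022 with trend and block, PFKL without 1 mM replicate 3 (range -0.078 to 0.0018) and LDHA without 1 mM replicate 1 or 2 or acetate replicate 1 (range -0.034 to 0.074). With acetate, 2 of the 10 genes were called, against 1 with library totals, no filter or the 8 libraries alone, 6 with the trend removed, with or without the block, and 5 without both libraries that stand apart. Over all genes the 1980 acetate calls became 1056 with the 8 libraries alone, 3914 with the trend removed, 3542 with trend and block and 3728 without both libraries. The cause was not tested. Leaving out 1 library gave 7 to 8, 1 to 4 and 10 to 10 called members in the 3 comparisons, and 9087 to 9791, 1196 to 2956 and 8421 to 8900 genes in all. Isoenzyme ratios kept their sign in all 198 alternatives; with a library left out the smallest exact permutation p is 0.0571, so those are values without a test.

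The same-numbered libraries of 10 mM and 1 mM glucose correlated at 0.067, 0.165, 0.230 and 0.049 in their deviations, all positive, against -0.249 to 0.074 between different numbers. In the other pairs of media same-numbered libraries lay between -0.334 and 0.113. Since these do not all exceed 0.1 and the labels tie the numbers to nothing, the numbers were not taken as pairs. With the replicate block 7 members were called for 10 mM against 1 mM glucose, PFKM being lost, and 3 for acetate, ALDOA being added.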
